A study of Mus musculus with 12 samples.

Results

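Cytosolic ribosomal protein genes encode the proteins of the ribosomes that translate nuclear messages in the cytoplasm. Members were the protein-coding genes whose symbol is Rps or Rpl followed by a number (with an a, x, y or l suffix allowed), Rplp0, Rplp1, Rplp2, or Rpsa. The rule found 80 genes among the 36119 rows of the table, 31 for the 40S subunit and 49 for the 60S subunit. A further 3 genes fitted the pattern but are annotated as pseudogenes (Rps4l, Rpl6l and Rpl32l) and were left out.

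The RNA came from the hippocampus of C57BL/6 mice at postnatal day 70, with 3 libraries in each of 4 groups. EC mice were given ethanol as pups and lived in standard cages. CC mice were given saline and lived in standard cages. EE mice were given ethanol and lived in enriched cages, and CE mice were given saline and lived in enriched cages. Ethanol was injected under the skin at 2.5 g/kg in 0.15 M saline, in 2 injections spaced 2 hours apart, on postnatal days 6 and 7, although a label field calls the exposure prenatal. Saline groups had the same injections without ethanol, so all 4 groups share the injections. Enriched housing began on postnatal day 21 in large cages of 2 to 6 littermates of the same sex, with running wheels, ladders and toys. The sources do not give the litter of each mouse, so p-values measure only the spread between these libraries. Libraries were numbered within a group as the titles number them (EC1 is replicate 1 of EC).

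Each cytosolic ribosome has a small 40S subunit, which reads the message and holds the decoding site, and a large 60S subunit, which joins amino acids. The proteins are needed in near-equal amounts, and most of their messages start with a C followed by a run of pyrimidines, the 5′ terminal oligopyrimidine tract, through which the mTOR pathway regulates their translation. In neurons, ribosomes are found in dendrites as well as in the cell body, where local translation takes part in synaptic plasticity. Mammalian genomes carry many processed copies of these genes, which arose by reverse transcription of the spliced message.

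The authors' values are named TPM per gene. TPM are transcript abundances as shares of all transcripts, set per transcript length, so that genes can be compared within a library. TPM keep no read counts, so the sequencing depth is unknown. The library columns summed to between 973187 and 1024536 and not to the same total, so the values were taken as a signal proportional to TPM. Markers of CA pyramidal neurons summed to 526 to 691 TPM and those of astrocytes to 2969.6 to 3699.9 TPM over the 12 libraries, so hippocampal neurons and glia were represented in every one. Choroid plexus markers, including the transthyretin gene Ttr, summed to 7854 TPM in CE2 and 439 TPM in EC1, against 36.8 to 141 TPM in the other libraries. Oligodendrocyte markers summed to 5654 to 5965 TPM in EC and 3419 to 5854 TPM in CC libraries, and to 4085 to 6065 TPM in EE and 3412.5 to 4234 TPM in CE libraries. Dentate granule cell markers summed to 207 to 267 TPM in EC and 281 to 395 TPM in CC libraries, and to 245 to 279 TPM in EE and 229 to 285 TPM in CE libraries. Meningeal fibroblast markers summed to 204 to 279 TPM in EC and 114 to 234 TPM in CC libraries, and to 187 to 217 TPM in EE and 191 to 339 TPM in CE libraries. Of these 10, 9 had a higher mean log2 level in EC than CC, 10 in CE than CC and 1 in EE than CE. Of 11 dentate granule markers, 0 were higher in EC than CC, 0 in CE than CC and 7 in EE than CE. Of 12 oligodendrocyte markers, 11 were higher in EC than CC, 0 in CE than CC and 11 in EE than CE. Over all genes tested, 50.7%, 50.9% and 48% were higher in the same order. In these lists 0 markers passed an adjusted p of 0.05 by limma. The part of these cell types in the values below was not tested, and in bulk tissue fewer cells of a type and less RNA per cell cannot be told apart.

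The 80 genes together made up 4.68% to 5.56% of each library's column sum. Of the 80, 77 had a mean of at least 1 TPM over the 12 libraries and were tested, all 31 of the 40S subunit and 46 of the 60S subunit. Their median level was 562 TPM, against 19.4 TPM for the 14947 genes tested in all, 73 members were at 100 TPM or more and 12 at 1000 TPM or more. The median level was 615 TPM over the 40S genes and 510.0 TPM over the 60S genes. The 5 most abundant were Rplp1 of the ribosomal stalk at 1964 ± 131 TPM, Rps29 at 1947 ± 172 TPM, Rps27 at 1849 ± 144 TPM, Rps21 at 1549 ± 149.6 TPM and Rps24 at 1436 ± 87.7 TPM (mean ± SD, n = 12). These 5 held 17.3% of the summed level of the family. The ranges of Rplp1, Rps29 and Rps27 over the 12 libraries overlapped. Within libraries, Rplp1 was above Rps27 in 12 of 12 and above Rps29 in 6 of 12, and Rps29 was above Rps27 in 10 of 12. The lowest tested members were Rpl12 at 13.7 ± 2.5 TPM, Rpl5 at 45.9 ± 3.36 TPM, Rps27l at 53.8 ± 6.8 TPM, Rpl10 at 88.8 ± 15.3 TPM and Rpl35 at 187 ± 12.9 TPM (n = 12).

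**Figure D1:**
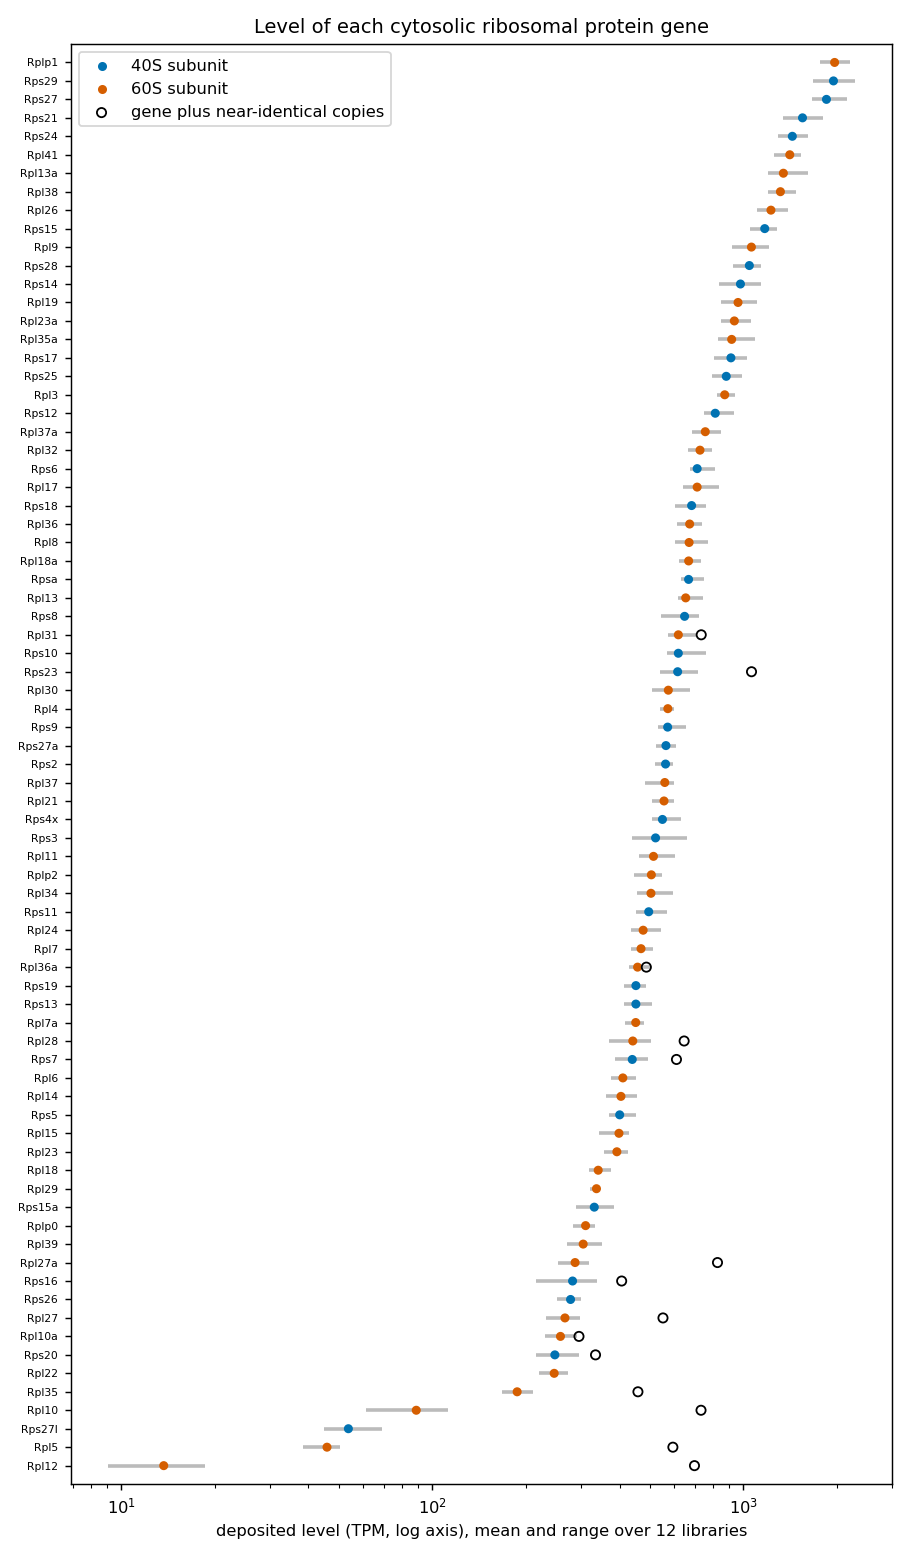
Mean level in TPM on a log axis of the 77 tested ribosomal protein genes over 12 libraries, with the lowest to highest library as a grey bar; open circles add near-identical copies for genes whose copies reach 20 TPM. Most genes lie between 100 and 1000 TPM, and Rpl12, Rpl5 and Rpl10 sit far left of their open circles.

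The stalk proteins, which bind the translation factors on the 60S subunit, had messages listed at unequal levels. Rplp0, the stalk base, averaged 311 ± 15.8 TPM, and Rplp2 506 ± 29.1 TPM, while its partner Rplp1 was at 1964 TPM (SD, n = 12). The longest annotated transcript is 1358 bases for Rplp0, 964 for Rplp2 and 499 for Rplp1. The part of transcript length in these levels was not tested. Rpl41, which encodes a very short basic peptide of the 60S subunit, averaged 1409 ± 85.1 TPM. Rpsa, a 40S protein that is also called the laminin receptor, averaged 667 ± 32 TPM, and Rps6, the 40S protein that S6 kinase phosphorylates, averaged 710.3 ± 38.6 TPM. Rps27a, whose product is cut from a fusion with ubiquitin, averaged 564 ± 26.9 TPM. Rpl11, which with Rpl5 and the 5S RNA can bind Mdm2, averaged 514 ± 38.8 TPM (SD, n = 12 for all).

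Members that are duplicates of another member were lower than it. Rpl3l, the striated muscle form of Rpl3, was at 0.113 to 0.652 TPM, against 871 TPM for Rpl3. Rpl39l, a testis form of Rpl39, was listed at 0 in 6 libraries and reached 0.73 TPM in the highest, against 306 TPM for Rpl39. Rpl10l, a testis form of Rpl10, was listed at 0 in all 12 libraries. Rps27l, a p53-responsive relative of Rps27, averaged 53.8 TPM, against 1849 TPM for Rps27, and was the one duplicate of these 4 that passed the filter. The X-linked Rps4x averaged 549 ± 35.2 TPM (SD, n = 12).

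Several relatives outside the rule that also encode ribosomal or ribosome-bound proteins were at levels of the same order. Rps3a1 averaged 723 TPM, Fau 605 TPM, Rpl36al 282 TPM, Rack1 247 TPM and Rpl22l1 209 TPM, while Rpl7l1 averaged 46.7 TPM and Rps27rt 2.81 TPM.

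The low values of Rpl12, Rpl5 and Rpl10 stood beside rows for processed copies of the same genes. Copies were defined as rows that share at least 50% of the 31-base words of their own transcripts with a member and do not overlap it. There were 301 such rows, 292 annotated as pseudogenes and 9 as protein-coding, belonging to 67 of the 80 members. Most were low, and 15 averaged 20 TPM or more. Summed over copies, the level per library was 3857 to 4710 TPM, 7.52% to 8.24% of the level of members and copies together. For 6 members the copies held over 50% of the joint level. The share in copies was 98.0% for Rpl12, 92.3% for Rpl5, 87.8% for Rpl10, 65.1% for Rpl27a, 59.1% for Rpl35 and 51.6% for Rpl27.

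For Rpl12 the row with most of the level was Gm10275 (ENSMUSG00000069682, chr10:29698746-29699380, minus strand, GRCm38), a transcribed processed pseudogene at 682 TPM. Rpl12 itself lies at chr2:32961559-32965345, and the 634 bases aligned had 0 mismatches. For Rpl10 (chrX:74270812-74273135) the row was Rpl10-ps3 at chr9:50344201-50344968, annotated as protein-coding, at 640.3 TPM, with 0 mismatches over 740 aligned bases. For Rpl5 (chr5:107900502-107909005) it was Gm15500 at chr7:114705217-114706235, at 546 TPM, with 0 mismatches over 1018 aligned bases. The first 60 coding bases are shown because member and copy cannot be told apart in them by sequence, from the GENCODE M21 transcripts on GRCm38.
Rpl12 and Gm10275: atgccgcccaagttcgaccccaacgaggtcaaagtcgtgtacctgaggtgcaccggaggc
Rpl10 and Rpl10-ps3: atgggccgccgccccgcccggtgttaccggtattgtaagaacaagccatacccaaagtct
Rpl5 and Gm15500: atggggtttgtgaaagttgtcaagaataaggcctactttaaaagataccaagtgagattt

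Most of the other copies at 20 TPM or more also had 0 mismatches, such as Rpl31-ps8 of Rpl31 over 378 aligned bases. A few differed from their member by single bases. Gm6472, a copy of Rps7 at chrX:152909505-152910155, averaged 169 TPM and had 4 mismatches, 3 of them coding. Gm4332, a copy of Rps20 at chr3:119709516-119709861, averaged 87 TPM and had 1 mismatch. These stretches of 30 bases are shown because each holds a base that separates the copy from the member, in capitals and at position 16 counted from 1 at the left end.
Rps7: cgagcgccaagatcgTgaagcccaatggcg
Gm6472 (T16G): cgagcgccaagatcgGgaagcccaatggcg
Rps20: catcagtattgagccGggagttgaggttga
Gm4332 (G16A): catcagtattgagccAggagttgaggttga

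**Figure D2:**
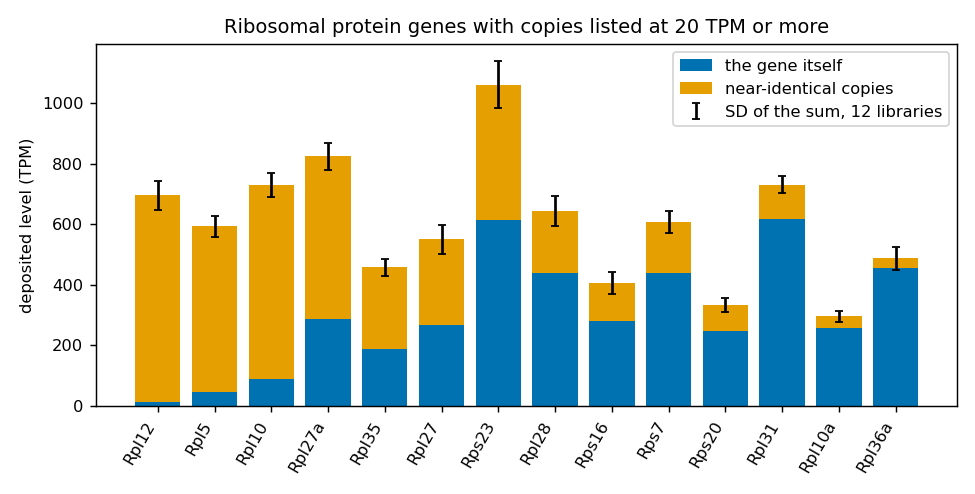
Mean level in TPM of 14 ribosomal protein genes whose copies average 20 TPM or more, as stacked bars for the gene itself and its near-identical copies, with the SD of their sum over 12 libraries. Rpl12, Rpl5 and Rpl10 are small next to their copies, and the sums run between 296 and 1062 TPM.

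Joined with their copies, Rpl12, Rpl5, Rpl10 and Rpl35 had levels like those of the rest of the family. Rps27l, also among the lowest members, had 0 copies and stayed at 53.8 TPM. Of the 14 members whose copies average 20 TPM or more, 11 varied less between libraries with their copies added and 3 varied more. A sum can vary less than its parts however the reads were divided, so these counts do not test the division. Rpl12 with its copies averaged 696 ± 48.7 TPM, with a coefficient of variation (SD over mean) of 7.00%, against 18.3% for Rpl12 alone. Rpl10 with its copies averaged 731 ± 40.6 TPM, with a coefficient of variation of 5.56% against 17.2% alone (SD, n = 12). Rpl31 varied by 8.16% alone and by 3.85% with its copies, and its copy Rpl31-ps8 was low, at 54.1 TPM in CC1 and 52.9 TPM in EE2, where Rpl31 was high, at 710.4 TPM in CC1 and 703 TPM in EE2. Rpl27 varied by 7.46% alone and by 8.72% with its copies, Rpl36a by 5.73% and 7.86%, and Rps23 by 6.64% and 7.33%. For Rpl27, the copies Gm11518 and Rpl27-ps3 were listed at the same value in every library, 141 TPM on average. Levels of members with copies, and their fold changes, are therefore uncertain, since the division of reads between identical sequences is an estimate.

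Promoter windows were read for 60 of the 80 members, giving 72 windows of 300 bases (250 before the annotated start and 50 after) from RefSeq on GRCm38.p6, where 32817 windows are listed in all. A C at the annotated start followed by at least 4 pyrimidines was found in 13 of the 72 windows (18.1%), against 2.5% of all windows. Starts of such messages are known to be spread over a few bases, and a C followed by 4 pyrimidines within 10 bases of the start was found in 55.6% of the members' windows and 30.7% of all windows. The sequence CCGGAAG, a site for ETS factors, was found on either strand in 36.1% of members' windows and 8.86% of all windows. The sequence TATAAA, 40 to 20 bases before the start, was found in 0 of the 72 windows and in 1.91% of all. A match is a description of the letters and shows no binding. The windows below run from 20 bases before the start to 10 bases from it. The pyrimidine run nearest the start is in capitals, to show the tract that gives these messages their name. Rps7 is shown as a member with no such run marked near its annotated start. Its window does hold cttcc farther upstream, in lower case, so it is not shown to lack a tract.
Rps6, chr4:86857358-86857387, minus strand: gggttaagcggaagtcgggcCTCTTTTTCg
Rps27, chr3:90213639-90213668, minus strand: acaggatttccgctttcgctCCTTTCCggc
Rps10, chr17:27635235-27635264, minus strand: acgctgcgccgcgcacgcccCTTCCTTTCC
Rplp2, chr7:141447631-141447660, plus strand: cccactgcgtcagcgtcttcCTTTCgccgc
Rpl35a, chr16:33056462-33056491, plus strand: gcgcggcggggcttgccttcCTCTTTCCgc
Rps7, chr12:28635944-28635973, minus strand: gaagagcttccggtttccacccacctactt

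The 13 genes with the tract at an annotated start had a median level of 618 TPM, and the 44 other tested genes with a window had a median of 509 TPM. In EC1 the median log2 deviation from a gene's own mean was -0.12 for the tract genes and -0.10 for the others, and in CC1 it was 0.17 for both sets. The sets were farthest apart in EE3, at -0.06 for the tract genes and -0.02 for the others, and their difference was not tested. The others are not free of the tract. Counted within 10 bases of the start, 38 of the 60 members with a window had one. These values therefore do not compare messages with the tract against messages without it.

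The members moved up and down together from library to library, and the group means differed by less than the spread within groups. The summed level of the 80 members was 46675, 50759 and 52103 TPM in EC1 to EC3, against 56942, 49887 and 49110.0 TPM in CC1 to CC3. It was 46826, 52115 and 49195 TPM in EE1 to EE3, against 48172, 53387 and 51617 TPM in CE1 to CE3. CC1 was the highest of all and EC1 and EE1 the lowest, and the ranges of EC and CC, and of EE and CE, overlapped. The ratio of 40S to 60S sums stayed between 0.800 and 0.828, so both subunits followed the same course.

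Of the 77 tested members, 75 were above their own 12-library mean in CC1, 70 in CE2 and 65 in EE2, whereas 6 were above it in EC1, 2 in EE1 and 12 in CE1. CC1 held the highest value of 60 members. EC1 held the lowest value of 27 members and EE1 that of 26. The median log2 deviation was -0.10 in EC1, 0.17 in CC1 and -0.10 in EE1. It was -0.04 to 0.08 in the other libraries except CE1, where it was -0.06. After rescaling every column to the same sum, it was -0.10 in EC1 and 0.13 in CC1, and the next lowest after EC1 were EE1 at -0.06 and CC3 at -0.07.

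**Figure D3:**
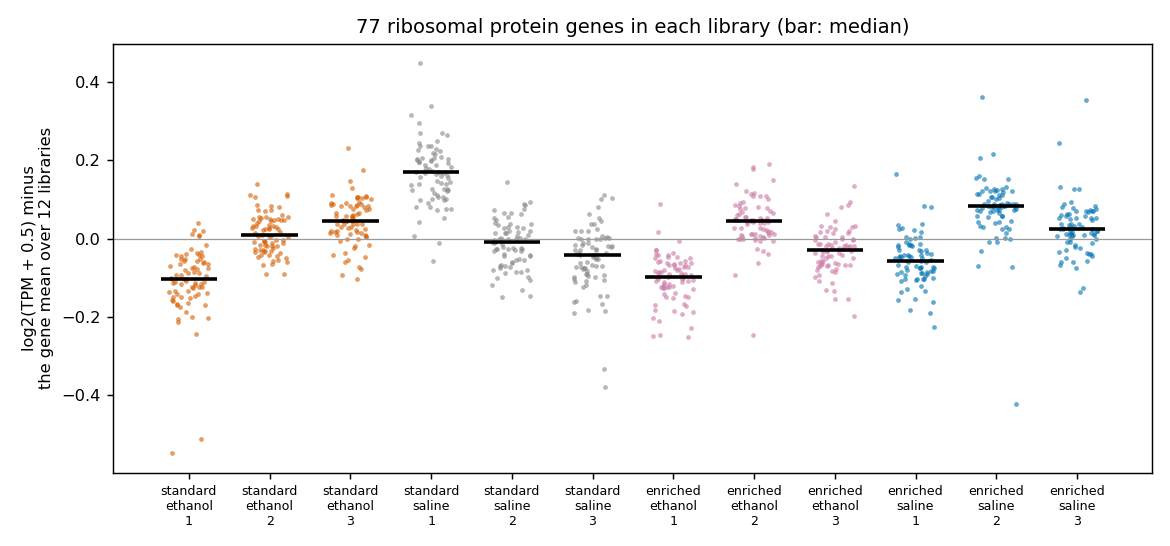
Deviation of log2(TPM + 0.5) from each gene's 12-library mean, for 77 ribosomal protein genes in each library, with a bar at the median. The CC1 points lie mostly above 0 (median 0.17) and those of EC1 and EE1 mostly below (median -0.10 in each).

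Other short genes followed the members in some libraries and not in others. Over 633 other protein-coding genes whose longest transcript is at most 1000 bases, the median log2 deviation was -0.05 in EC1, 0.09 in CC1 and -0.09 in EE1. It was also low in CC3, at -0.08, and had the same sign as the members' median in 9 of 12 libraries. The exceptions were EE3 at 0.02, CE1 at 0.02 and CE3 at -0.03, where the members were at -0.03, -0.06 and 0.03. Over all protein-coding genes the median was within 0.01 of 0 in each of the 12 libraries. The 78 mitochondrial ribosomal protein genes, whose products form the separate ribosome of mitochondria, had medians of -0.05 in EC1, 0.04 in CC1 and -0.10 in EE1, were highest in CE2 at 0.07, and also had the members' sign in 9 of 12 libraries. The part of either set in the members' values was not tested. Between libraries, a member's coefficient of variation had a median of 6.54%, from 2.24% for Rpl29 to 18.3% for Rpl12, against 11.9% over all genes tested. Among genes at 100 TPM or more it was 6.50% for members and 6.60% for the 1591 other genes.

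Ethanol in standard cages was compared as EC against CC, with limma on log2(TPM + 0.5) across all 14947 genes and Benjamini-Hochberg adjustment. On this scale the change of low genes is understated. No member passed an adjusted p of 0.05 (0 of 77, where 0.0134% of all genes did), and the smallest adjusted p was 0.559. At an unadjusted p under 0.05, 0 members were higher and 1 was lower, against 3.75% and 3.64% of all genes. The median log2 fold change of the members was -0.04, and 60 of 77 lay below 0, against 49.3% of all genes. It was -0.04 over 40S genes (23 of 31 below 0) and -0.05 over 60S genes (37 of 46 below 0). The median was 0.02 without CC1 and -0.01 without EC1.

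Rpl30, a 60S protein, had the smallest p in this comparison. Rpl30 was at 508, 566 and 542 TPM in EC libraries, against 674, 599 and 573 TPM in CC libraries. All 3 EC libraries were below all 3 CC libraries, with the highest value in CC1. Its log2 fold change was -0.19 ± 0.07 (SE; 95% interval -0.34 to -0.04), with an adjusted p of 0.559 by limma, and it was -0.12 without CC1. The values for Rps6 were 684, 692 and 691 TPM in EC libraries, against 808, 709 and 732 TPM in CC libraries. EC libraries again lay below CC libraries, and the log2 fold change was -0.12 ± 0.06 (SE), with an adjusted p of 0.704 by limma, and it was -0.06 without CC1. Rpl13 was at 618, 631 and 630.1 TPM in EC libraries, against 739.8, 649.7 and 643 TPM in CC libraries, which also did not overlap. Rpl29 was at 338.9, 345 and 341 TPM in EC libraries, against 338.7, 323 and 332 TPM in CC libraries. It was the one member with EC above CC throughout, with EC1 barely above CC1. So 1 member was higher and 3 were lower without overlap, against 6.11% and 5.99% of all genes.

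Ethanol in enriched cages was compared as EE against CE. Here too no member passed (0 of 77, where 0% of all genes did), and the smallest adjusted p was 0.656. At an unadjusted p under 0.05, 0 members were higher and 0 lower, against 3.85% and 3.91% of all genes. The median log2 fold change was -0.05, with 65 of 77 members below 0, against 52% of all genes. It was -0.01 without EE1. Rps7, a 40S protein, was at 385, 411 and 442.7 TPM in EE libraries, against 445, 472 and 443.4 TPM in CE libraries. The EE libraries lay just below the CE libraries, with a log2 fold change of -0.14 ± 0.07 (SE; 95% interval -0.28 to 0.01) and an adjusted p of 0.656 by limma, and it was -0.07 when Rps7 was summed with its copies. Rpl37a, of the 60S subunit, was at 692, 721 and 742 TPM in EE libraries, against 743, 799 and 769 TPM in CE libraries, and was the other member without overlap. Thus 0 members were higher and 2 lower without overlap, against 7.78% and 7.45% of all genes.

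Enrichment in saline mice was compared as CE against CC. No member passed (0 of 77, where 0.0268% of all genes did), with a smallest adjusted p of 0.610, and 0 were higher and 0 lower at an unadjusted p under 0.05, against 5.43% and 4.6% of all genes. The median log2 fold change was -0.01, with 48 of 77 members below 0 and 29 above, against 49% and 50.9% of all genes. It was 0.04 without CC1 and 0.02 without CE1, and 0.01 when columns were rescaled to the same sum, where 28 members lay below 0. No member had CE and CC libraries without overlap (0 higher and 0 lower, against 7.4% and 6.57% of all genes).

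Enrichment in ethanol mice was compared as EE against EC. No member passed (0 of 77, where 0.00669% of all genes did), with a smallest adjusted p of 0.936, and 0 were higher and 0 lower at an unadjusted p under 0.05, against 2.91% and 2.66% of all genes. The median log2 fold change was -0.01, with 45 of 77 members below 0, against 51.8% of all genes, and 0.01 after rescaling to the same sum. Rpl12 was at 13.2, 13.8 and 14.9 TPM in EE libraries, against 9.08, 12.7 and 12.6 TPM in EC libraries. It was the 1 member without overlap, higher in EE, where 6.07% of all genes were, and 0 were lower, against 5.97%. Its log2 fold change was 0.29 ± 0.18 (SE; 95% interval -0.12 to 0.69), with an adjusted p of 0.936 by limma, and it was -0.02 when Rpl12 was summed with its copies.

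Both exposures were set against neither as EE against CC, which uses CC and EE libraries already compared above. No member passed (0 of 77, where 0.0134% of all genes did), with a smallest adjusted p of 0.750, and at an unadjusted p under 0.05 there were 0 higher and 1 lower, Rps7, against 3.24% and 3.27% of all genes. The median log2 fold change was -0.07, with 68 of 77 members below 0, against 50.7% of all genes, and it was -0.01 without CC1. Rps21, Rps10, Rplp2 and Rpl22 had EE libraries below CC libraries without overlap, 4 members where 5.59% of all genes did so, and 0 were higher, against 5.07%. Rps21 was at 1349.6, 1561 and 1462 TPM in EE libraries, against 1804, 1583 and 1599.7 TPM in CC libraries, with a log2 fold change of -0.19 ± 0.10 (SE) and an adjusted p of 0.792 by limma.

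**Figure D4:**
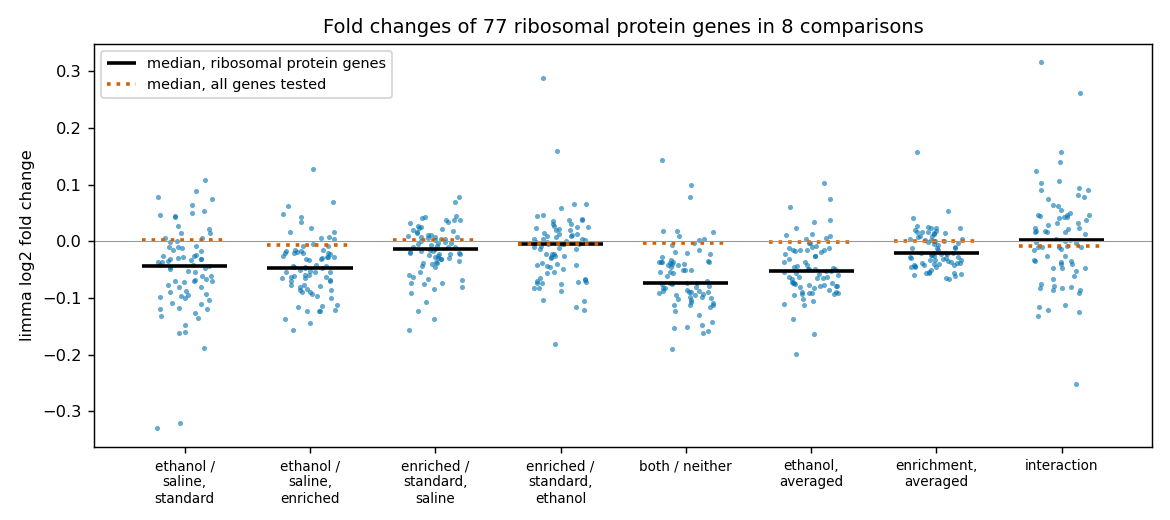
limma log2 fold changes of the 77 tested ribosomal protein genes in 8 comparisons, with solid bars at their median and dotted bars at the median of all genes tested. The members' medians lie between -0.07 and 0.00, and none of the 77 passed an adjusted p of 0.05.

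Averaged over housing, ethanol was set against saline with 6 libraries a side. No member passed (0 of 77, where 0.0134% of all genes did), with a smallest adjusted p of 0.577. The median log2 fold change was -0.05, with 66 of 77 members below 0, against 50.8% of all genes, and -0.02 without CC1. At an unadjusted p under 0.05, 0 members were higher and 3 were lower, against 3.97% and 4.05% of all genes. The 3 were Rps7 at -0.11 ± 0.05, Rpl30 at -0.11 ± 0.05 and Rplp2 at -0.10 ± 0.05 on the log2 scale (SE), with adjusted p of 0.577, 0.620 and 0.621 by limma. Summed with its copies, Rps7 was at -0.07. Rplp2, the stalk protein, was at 444, 502 and 519 TPM in EC libraries, against 547, 519.6 and 518 TPM in CC libraries. Rplp2 was at 470.4, 506 and 490.1 TPM in EE libraries, against 490.2, 532 and 535 TPM in CE libraries. The Rplp2 ranges overlapped in both housings, and 0 members had all 6 ethanol libraries above or below all 6 saline libraries, against 0.154% and 0.261% of all genes.

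Averaged over ethanol, enrichment gave a median log2 fold change of -0.02, with 52 of 77 members below 0, against 50% of all genes. It was 0.02 without CC1 and 0.00 after rescaling to the same sum. No member passed (0 of 77, where 0.0201% of all genes did), with a smallest adjusted p of 0.794, and 0 were higher and 0 lower at an unadjusted p under 0.05, against 4.14% and 3.82% of all genes. None had all 6 enriched libraries above (0 of 77, against 0.234%) or below (0 of 77, against 0.14%) all 6 standard ones. For the interaction, the difference between the ethanol effects in the 2 housings, the median was 0.00, with 37 of 77 members below 0, against 51.6% of all genes. No member passed (0 of 77, where 0.0134% of all genes did), with a smallest adjusted p of 0.752, and 0 were higher and 0 lower at an unadjusted p under 0.05, against 3.42% and 3.99% of all genes.

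A p that misses the threshold does not show equal levels, and the 95% intervals (per gene, not adjusted) bound the changes. In EC against CC, the interval lay within 1.5-fold either way for 75 of 77 members, the exceptions being Rpl10 and Rpl12. In EE against CE, CE against CC and EE against CC it did so for all 77, and in EE against EC for 76, with Rpl12 the exception. It did so for all 77 in both averaged comparisons and for 74 in the interaction, where Rpl10, Rpl12 and Rps27l were the exceptions.

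Genes that build ribosomes and control translation were described in the same fits, where 0% to 0.0268% of all genes passed per comparison. Of 32 ribosome biogenesis genes, 0 passed in any of the 8 comparisons, and their median log2 fold change was -0.03 in EC against CC and -0.01 in EE against CE. In EE against CE, 1 was higher and 2 were lower at an unadjusted p under 0.05, against 3.85% and 3.91% of all genes. The higher one was Ncl, the nucleolar protein nucleolin, with a log2 fold change of 0.22 ± 0.07 (SE). The lower ones were Nop14, at -0.28 ± 0.08, and Rrp9, at -0.33 ± 0.12 (SE), both of which take part in making the 40S subunit or its RNA. Their adjusted p by limma was 0.576 for Ncl and Nop14 and 0.592 for Rrp9. At the same unadjusted limit, 1 biogenesis gene was higher and 4 were lower in EE against CC, against 3.24% and 3.27% of all genes. With ethanol averaged, 1 was higher and 3 were lower, against 3.97% and 4.05%. In EC against CC, 0 were higher and 1 was lower, against 3.75% and 3.64%. The list for RNA polymerase I, which transcribes ribosomal RNA, also held its factors and the transcription factor Mycn. Of the 17 tested genes in that list, 0 passed in any comparison, with medians of -0.02 and 0.05. Of 20 genes listed as elongation factors or other genes with the tract, 0 passed, with medians of -0.03 and -0.01. The tract was not looked for gene by gene in that list. Of 25 genes of translation control, 0 passed, with medians of -0.01 in both. Of 78 mitochondrial ribosomal protein genes 0 passed, with medians of 0.00 and -0.06. In EE against CE, 61 of the 78 lay below 0, against 52% of all genes. It was 41 of 78 in EC against CC and 32 of 78 in CE against CC, against 49.3% and 49% of all genes.

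Of the 8 relatives outside the rule, 0 passed in any comparison, where 0% to 0.0268% of all genes did. Rps27rt, a retrogene copy of Rps27 on chromosome 9 that shares 91.6% of its 31-base words with it, was at 1.09, 0 and 0 TPM in EC libraries, against 19, 2.31 and 11.3 TPM in CC libraries. Rps27rt was listed at 0 in all 3 EE and all 3 CE libraries. It was thus highest in CC, with an adjusted p of 0.244 in EC against CC and 0.0775 in CE against CC by limma, beside a parent at 1849 TPM. Its values are uncertain for the reason given for the copies above.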

How the data were processed

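The authors deposited 1 table with a TPM value per gene and library, treated here as a signal proportional to TPM because its columns do not sum to the same total; the design had assumed plain TPM, and the test is the same. Per the submitters' processing notes, CASAVA, kallisto and sleuth were used with the build mm10, with no versions or roles; the annotation release is not given in the sources used here. Per the labels' protocols, total RNA was depleted of ribosomal RNA and made into stranded libraries. Each of the 12 columns was assigned to its sample from the column name.

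Symbols, biotypes and transcripts came from GENCODE M21 (GRCm38; 35879 of 36119 identifiers had a symbol), promoter windows from RefSeq (GRCm38.p6). Genes with a mean of at least 1 were analysed as log2(TPM + 0.5) with limma 3.58.1 in R 4.3.3: a mean per group over 12 libraries, 8 residual and 3.82 prior degrees of freedom, a mean-variance trend, two-sided tests, Benjamini-Hochberg adjustment over all 14947 genes and a threshold of 0.05. Copies were aligned with Biopython 1.88. Tested on simulated data for EC against CC over 14947 genes, the fit called 78% of genes changed 2-fold, 91% of those changed 4-fold, 4 unchanged genes, and 0 genes when nothing was changed. The simulated noise was independent between genes, while the members here moved together. Changes below 2-fold, such as those of the members, were not simulated.

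Members and gene lists were chosen with earlier results of these data known. The genes named were, per comparison, members past the threshold or otherwise the smallest p values in each direction (not all are printed), the 5 highest and 5 lowest members, and a list of members with known roles; members without overlap between groups, Rpl31, Rpl37a, Rpl13 and copies were added after their values were seen. Alternatives covered the pseudocount, the filter, rescaling, the trend, the groups fitted, the replicate number as a block, each library left out, and, chosen after seeing the data, members summed with copies, alone or with median-ratio rescaling, and other limits for calling a row a copy. One relative outside the rule and 1 copy are not reported here, and most other copies are given only in counts and sums.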

Additional observations from a re-analysis of the deposited data

How the results depend on the processing

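No member passed the threshold in the 181 fits of a comparison under another setting. These were 23 settings for 8 comparisons, except that fitting only the groups compared was run for 5. The smallest adjusted p by limma was 0.385. Over all genes tested, deviations of libraries with the same replicate number correlated at -0.151 to 0.0576 (18 pairs). Those with different numbers correlated at -0.0875 to 0.118 (36 pairs), so the numbers showed no pairing on this measure. Pairing by litter was not tested, since the litters are not given. With the replicate number as a block, 0 members passed and the median log2 fold change of EC against CC was -0.04, as without it. Leaving out single libraries moved that median between -0.09 and 0.02, and the medians of the other comparisons between -0.09 and -0.01 (EE against CE), -0.06 and 0.04 (CE against CC), -0.05 and 0.02 (EE against EC), -0.11 and -0.01 (EE against CC), -0.07 and -0.02 (ethanol averaged), -0.04 and 0.02 (enrichment averaged), and -0.05 and 0.04 (interaction). Of 48 named fold changes, 11 changed sign under some alternative, none past the threshold. With members summed with copies (chosen after seeing the data), the log2 fold change of Rpl10a was -0.010 in EC against CC, -0.125 in EE against CE, -0.138 in EE against CC, -0.068 for ethanol averaged and -0.070 for enrichment averaged. Rpl27a became -0.0073 in CE against CC, Rpl12 became -0.024 in EE against EC and -0.016 for enrichment averaged, and Rpl10 became -0.0047 for the interaction. With median-ratio rescaling as well, the values in the same order were -0.011, -0.121, -0.136, -0.066 and -0.070 for Rpl10a, -0.010 for Rpl27a, and -0.022 and -0.016 for Rpl12. These reversals follow from adding the copies' values to the member. Without single libraries, the range was -0.0056 to 0.10 for Rpl10a in EE against CE, -0.0034 to 0.16 for Rpl27a and -0.025 to 0.12 for Rps13 in CE against CC, -0.017 to 0.31 for Rps16 in EE against CC, and -0.0090 to 0.051 for Rpl10a with enrichment averaged. The share of the summed level in copies was 8.32% when 25% of shared words sufficed and 7.35% when 90% were required. With depth unknown, no counting error could be set on low members, and with 3 libraries a group the median half-width of a 95% interval was 0.17 on the log2 scale.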
